A study of Homo sapiens with 6 samples.

Results

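Cyclins are the regulatory subunits of cyclin-dependent kinases (CDKs), and most CDKs need a cyclin or a related activator to work. In the cell cycle, D-type cyclins with Cdk4 and Cdk6 act in G1, E-type cyclins with Cdk2 act at entry into S phase, A-type cyclins act through S phase and G2, and B-type cyclins with Cdk1 drive mitosis. A second branch of the family phosphorylates RNA polymerase II or the Mediator complex and so acts in transcription. In breast cancer, cyclin D1 is a known oncogene and Cdk4 and Cdk6 are drug targets. Members were the genes of the count table whose symbol is Ccn followed by a letter and any number, or Cdk followed by a number and at most the letter a or b, with 1 further gene of this kind left out. This gave 42 of 22989 genes, 24 cyclins and 18 CDKs. By their known roles, 15 act in the cell cycle, 12 in transcription and 2, Cdk7 and its cyclin Ccnh, in both, and 13 are grouped as other or atypical.

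RNA-seq libraries were 3 with the label LINC00115 KD and 3 with the label WT, and all are given as paclitaxel (PTX)-resistant MDA-MB-231 breast cancer stem cells (BCSC). This established human line derives from a breast tumour without hormone receptors or HER2 amplification, and the stem cells were sorted from its PTX-resistant derivative by aldehyde dehydrogenase activity. In the KD group the long non-coding RNA LINC00115 was targeted by a short hairpin RNA (shRNA). The titles number the KD libraries as replicates 1, 2 and 3, and their descriptions read sh115-1, sh115-2 and sh115-3. The published text uses sh115-1 and sh115-2 as names of different hairpins and gives sh115-2 for this comparison, so from the labels replicates of 1 hairpin and different hairpins cannot be told apart. The labels call the controls WT, while the study describes a control shRNA, and no separate culture, clone or passage is named, so p-values measure the spread between these libraries, which may be technical.

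The libraries held between 36979221 and 38799331 counts, of which the 42 members took 0.531% to 0.537% in the WT libraries and 0.503% to 0.509% in the KD libraries. The table lists 0 genes named LINC00115, so the knockdown was not checked in the counts and the direction of each change rests on the labels. All symbols of the members are written in the style of mouse genes; each of the 42 equals a human symbol apart from case and 0 as written, and the table has 4648 Gm names of the mouse kind, while 583 of all 22989 genes had no count in any library. The labels give a human line, and which organism the counted reads come from was not tested. Of the markers of the labelled line, Vim (3418 and 3736 normalized CPM, mean of the WT and the KD libraries), Cd44 (911 and 879), Krt8 (472 and 752) and Krt18 (129 and 236) were well counted, and Erbb2, which encodes HER2, was at 17.0 and 27.6. The others were low, at 0.698 and 2.56 for Esr1, the oestrogen receptor gene, 0.327 and 1.16 for Aldh1a1, 0.124 and 0.0531 for Krt19, and under 0.1 on average in each group for Epcam, Aldh1a3 and Pgr. Of these 11 genes 6 were higher and 1 was lower in every KD library, and 4 overlapped. The counts of each marker list stand beside all 13497 genes tested, of which 5100 were higher and 5098 lower in every KD library. Some markers of other cells also differed. Ptprc, of the leukocyte list, and Pecam1, of the endothelial list, were low and overlapped between the groups. Their means in the WT and the KD libraries were 0.194 and 0.255 for Ptprc and 0.23 and 0.324 for Pecam1. The summed level of 9 lung epithelium genes was 20.4 to 28.8 normalized CPM in the WT libraries and 110.2 to 122 in the KD libraries, with 9 of 9 higher in every KD library and 5 of them, Scgb1a1 and 4 Sftp genes, at 0 in every WT library. That of 6 kidney genes was 15.7 to 18.4 and 38.6 to 42.5 (5 of 6 higher in every KD library, Kap and Umod at 0 in every WT library), that of 7 leukocyte genes 34.6 to 35.5 and 99.3 to 111 (4 of 7, mostly S100a8, Cd3e at 0 throughout), and that of 3 endothelial genes 0.291 to 0.664 and 56.8 to 59.4, nearly all of it from Cdh5. The sum of 4 fibroblast genes, nearly all of it Pdgfra (2 of 4 lower in every KD library), was lower, at 75.5 to 77.1 against 173 to 193, and those of 8 genes of multiciliated cells (2.29 to 3.26 against 1.43 to 2.65) and 2 germ cell genes (at most 0.263) were low in both groups. The part of such RNA in the values of cyclins and CDKs was not tested, and in these bulk libraries fewer cells of a kind and less RNA per cell cannot be told apart.

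To show what sequence lies at the start of the genes that the results turn on, the 250 bases upstream of the RefSeq start (GRCh38.p14) were read for the human genes CCNG2, the member that moved most, and CCNB1 and CCNB2, the B-type pair that moved apart. These human genes were matched to the counted members by symbol apart from case. The lines run 5′ to 3′ on the plus strand, from chr4:77156957-77157206, chr5:69166900-69167149 and chr15:59104896-59105145. Capitals mark matches on either strand to CCAAT (the CCAAT box bound by NF-Y), TTTGAA and TTTAAA (the cell cycle homology region, CHR, and a variant of it), ACGTG (core of the hypoxia response element), GTAAACA (a forkhead motif) or TTTGGCGC (an E2F motif).
CCNG2: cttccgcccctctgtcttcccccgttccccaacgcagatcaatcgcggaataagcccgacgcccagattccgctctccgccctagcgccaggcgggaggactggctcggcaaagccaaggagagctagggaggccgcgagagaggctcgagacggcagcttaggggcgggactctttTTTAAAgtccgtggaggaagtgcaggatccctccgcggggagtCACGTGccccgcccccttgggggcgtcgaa
CCNB1: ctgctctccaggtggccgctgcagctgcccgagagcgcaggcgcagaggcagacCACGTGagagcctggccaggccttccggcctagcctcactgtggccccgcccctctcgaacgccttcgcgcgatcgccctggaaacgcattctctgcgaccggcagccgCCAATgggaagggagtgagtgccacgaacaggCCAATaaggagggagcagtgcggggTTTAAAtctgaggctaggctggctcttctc
CCNB2: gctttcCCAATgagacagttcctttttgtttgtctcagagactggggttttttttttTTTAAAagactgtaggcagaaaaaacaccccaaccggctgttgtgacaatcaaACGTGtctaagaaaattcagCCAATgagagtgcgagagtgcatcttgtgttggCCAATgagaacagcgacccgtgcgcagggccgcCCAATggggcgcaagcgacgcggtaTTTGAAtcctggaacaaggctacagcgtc

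The human promoter was found for 38 of the 42 members. CCNG2 held ACGTG on both strands, within 1 CACGTG that begins 30 bases upstream of the start, and TTTAAA at 73 bases. ACGTG was also found in CCNB1, from 196 bases upstream, and in CCNB2, at 140 bases. The B-type pair shared the arrangement of CCAAT boxes with a CHR-like hexamer close to the start. In CCNB1 the boxes began 87 and 55 bases upstream and the hexamer at 30 bases was TTTAAA, and in CCNB2 boxes began 244, 120, 87 and 54 bases upstream and the hexamer at 29 bases was TTTGAA. CCNB2 also held TTTAAA, farther from the start, at 193 bases. TTTGAA was found in 5 of the 38 member promoters, those of CCNB2, CCNC, CCNF, CDK1 and CDK19, against 13.6% of all 27305 promoters of this length. TTTAAA was in 6 (11.4% of all), CCAAT in 15 (33.0% of all), ACGTG in 9 (18.7% of all), GTAAACA in 1 (2.98% of all) and TTTGGCGC in 0 (0.553% of all). These are matches of letters in human sequence, not sites.

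The comparison asks how cyclin and CDK transcripts differ between the KD and the WT libraries. Of the 42 members, 41 passed edgeR's expression filter and were tested; Ccnb3, a meiotic cyclin, had 0, 0 and 1 counts in the WT and 1, 4 and 0 counts in the KD libraries and was not tested. At an adjusted p under 0.05 (edgeR's quasi-likelihood test, adjusted over all 13497 genes tested), 18 members fell, against 36.7% of all genes tested, and 16 rose, also against 36.7% of all genes. The 34 members that changed in either direction compare with 73.4% of all genes, and in 34 members, against 75.6% of all genes, the values of the 2 groups did not overlap. A share of 82.9% of the members tested changed, and this is not a result particular to the family. With a fold change over 2 in addition, only Ccng2 fell (9.98% of all genes did) and Ccnd2, Ccnj and Cdk18 rose (10.2% of all genes did), 4 members in either direction against 20.2% of all genes. Ccnd2 passed the expression filter only through its KD counts. With at least 10 counts required in every library it was not tested, and 2 members rose past a fold of 2. The median log2 fold change was −0.08 over the members and −0.0061 over all genes, and the median size of the change, regardless of direction, was 0.36 and 0.45.

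The counts by role are read against the same 36.7% of all genes tested that fell and 36.7% that rose. Of 14 cell cycle members tested, 9 fell, 4 rose and 1 did not pass, with a median log2 fold change of −0.30. With at least 10 counts required in every library, which leaves out Ccnd2, 9 fell and 3 rose. Of 12 transcription members, 4 fell, 5 rose and 3 did not pass, with a median of −0.015. The 13 other or atypical members had 4 lower, 7 higher and 2 that did not pass, with a median of 0.28. Whether the roles differ from each other was not tested. Of 23 cyclins tested 9 fell and 8 rose, and of 18 CDKs 9 fell and 8 rose.

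**Figure D1:**
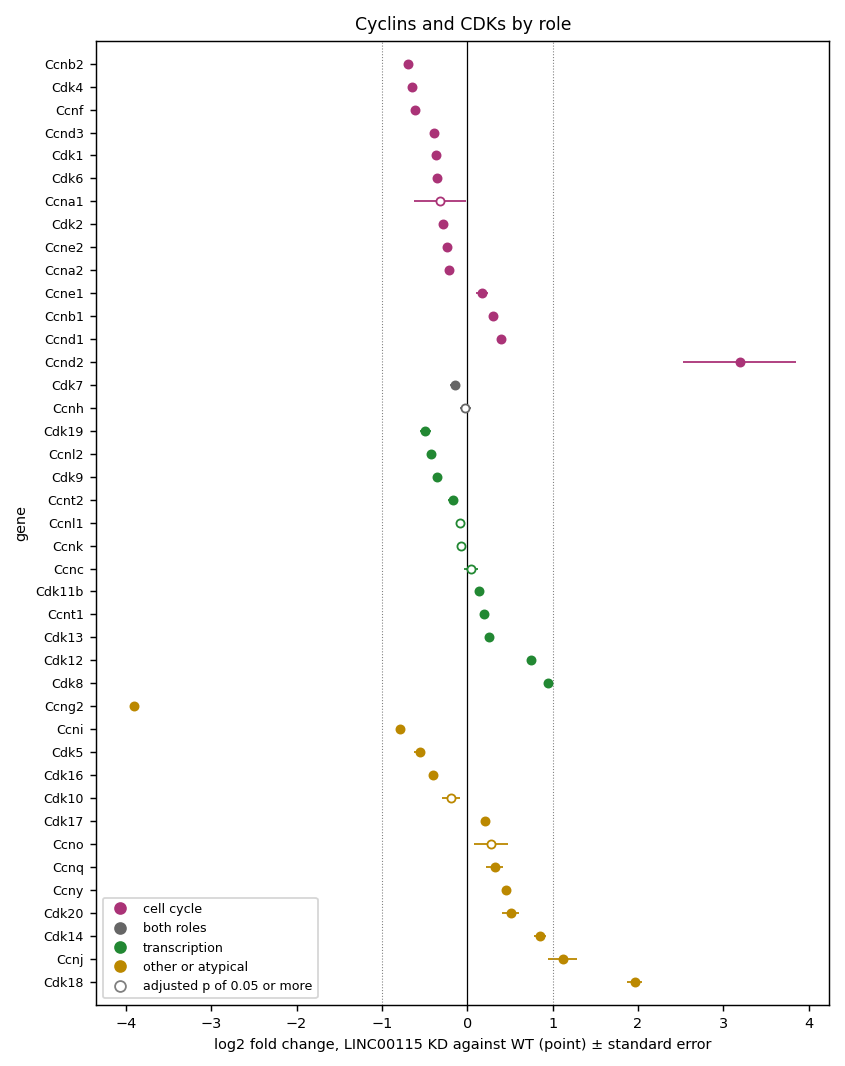
Log2 fold change of the 41 tested cyclins and CDKs in the LINC00115 KD against the WT libraries (x axis), with its standard error, ordered by role; open points had an adjusted p of 0.05 or more and dotted lines mark a fold change of 2. All members but Ccng2, Cdk18, Ccnj and Ccnd2 lie between the dotted lines, and Ccnd2 rests on few counts.

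In G1, the D-type cyclins moved apart. Ccnd1, which encodes cyclin D1, was at 1246, 1369.5 and 1354 normalized CPM (the count scaled to the library total with TMM factors) in the WT libraries and at 1733, 1686 and 1768 in the KD libraries. Every KD library lay above every WT library, a rise of 0.39 on the log2 scale (standard error 0.032, adjusted p = 5.69e-13, edgeR), or 1.31-fold. Ccnd3, a related D-type cyclin, was at 142, 142 and 146 in the WT and 109, 111 and 108 in the KD libraries. It was lower in every KD library, with a log2 fold change of −0.39 (adjusted p = 1.20e-10, edgeR). Ccnd2 was barely counted, with 3, 1 and 4 counts in the WT libraries and 25, 23 and 28 in the KD libraries. The groups did not overlap and the gene rose (adjusted p = 6.23e-05, edgeR), and the ratio of summed counts was 9.36 (95% exact interval 4.52 to 22.5, counting error only). Ccnd2 passed the expression filter only through its KD counts, so this p-value is not read as support for the rise. With at least 10 counts required in every library it was not tested. Ccnd1 made up most D-type counts, and its share of them went from between 89.8% and 90.6% in the WT libraries to between 93.8% and 94.2% in the KD libraries. Of the counts of all 42 members, Ccnd1 took 23.8% to 25.8% in the WT and 33.3% to 34.4% in the KD libraries.

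The kinases of the D-type cyclins fell together. Cdk4 was at 370.0, 384 and 386 normalized CPM in the WT and 249, 238 and 239.8 in the KD libraries. The log2 fold change was −0.65 (adjusted p = 2.58e-18, edgeR, standard error 0.034), which took every KD library below every WT library. Cdk6 was at 288 in each of the 3 WT libraries and at 226, 227 and 224 in the KD libraries. The log2 fold change of Cdk6 was −0.35 (standard error 0.034, adjusted p = 2.29e-11, edgeR), with no overlap between the groups.

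At the entry into S phase, the E-type cyclins differed in direction. Ccne2 was at 82.2, 83.5 and 86.3 normalized CPM in the WT and 69.5, 72.3 and 72.1 in the KD libraries, and fell by 0.24 on the log2 scale (adjusted p = 3.09e-05, edgeR). Ccne1 was at 30.1, 34.0 and 31.7 in the WT and 34.0, 38.3 and 35.2 in the KD libraries. The lowest KD and the highest WT library of Ccne1 were equal at this rounding. Its rise of 0.17 on the log2 scale (adjusted p = 0.0284, edgeR) was lost without WT replicate 1, without WT replicate 3 or without KD replicate 2 (adjusted p = 0.123, 0.0585 and 0.132, edgeR), and with upper quartile scaling or library size alone (adjusted p = 0.0943 and 0.0507), but not with DESeq2 size factors (adjusted p = 0.0228). Cdk2, the partner of the E-type and A-type cyclins, was at 70.2, 66.5 and 69.9 in the WT and 56.6, 55.9 and 57.4 in the KD libraries. It fell without overlap between the groups, with a log2 fold change of −0.28 (adjusted p = 6.25e-06, edgeR).

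In S phase, G2 and mitosis, most members fell and Ccnb1 rose. Ccna2, the A-type cyclin of dividing cells, was at 328, 341 and 348 normalized CPM in the WT and 294, 294 and 286 in the KD libraries, a log2 fold change of −0.22 (adjusted p = 6.51e-07, edgeR). Cdk1, the mitotic kinase, was at 229.5, 229 and 242 in the WT and 176, 183 and 183 in the KD libraries, a log2 fold change of −0.37 (adjusted p = 5.90e-11). In both, every KD library was below every WT library. The B-type cyclins, for which the promoters of the human genes are printed above, went opposite ways. Ccnb2 was at 123, 127 and 127 in the WT and 77.1, 79.8 and 75.6 in the KD libraries. This was the largest fall among the cell cycle members, a log2 fold change of −0.70 (adjusted p = 2.43e-16, edgeR, standard error 0.043). Ccnb1 was at 200, 197 and 212 in the WT and 246, 246 and 256 in the KD libraries. It rose by 0.30 on the log2 scale (standard error 0.037, adjusted p = 7.53e-09, edgeR), again with no overlap. The table also lists Ccnb1-ps, a pseudogene of Ccnb1, with 44, 63 and 67 counts in the WT and 141, 83 and 156 in the KD libraries, and how the counting split reads between them is not known here. Ccnf, a cyclin with an F-box that serves in protein degradation and binds no CDK, was at 88.5, 83.6 and 83.3 in the WT and 60.5, 55.6 and 51.1 in the KD libraries, and fell by 0.61 on the log2 scale (adjusted p = 3.18e-12, edgeR). Ccna1, an A-type cyclin of the germ line, was low, at 1.65, 1.83 and 2.83 in the WT and 1.19, 1.61 and 2.26 in the KD libraries, and its groups overlapped (log2 fold change −0.32, standard error 0.31, adjusted p = 0.358).

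**Figure D2:**
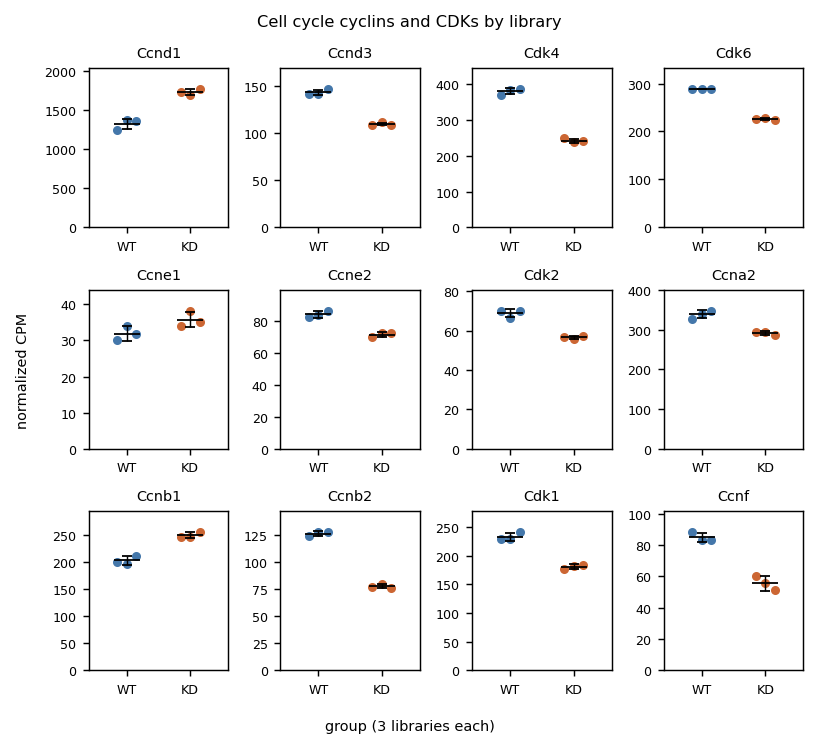
Normalized CPM (y axis, from 0) of 12 cell cycle cyclins and CDKs in each of 3 WT and 3 KD libraries (points), with the mean and SD (bars). Ccnd1, Ccnb1 and Ccne1 were higher in the KD libraries and the other 9 were lower.

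Of the kinase that activates other CDKs and also belongs to the transcription factor TFIIH, the kinase and the cyclin changed little. Cdk7 was at 62.5, 59.2 and 60.8 normalized CPM in the WT and 55.2, 56.4 and 52.8 in the KD libraries. It fell by 0.15 on the log2 scale (adjusted p = 0.0103, edgeR), a call that was lost without KD replicate 3 (adjusted p = 0.0806). Ccnh, its cyclin, was at 39.2, 38.1 and 36.4 in the WT and 36.9, 38.2 and 36.8 in the KD libraries. The groups overlapped and no difference was detected (log2 fold change −0.022, standard error 0.062, adjusted p = 0.753, edgeR). Mnat1, the assembly factor of this complex, rose by 0.45 on the log2 scale (adjusted p = 3.69e-05, edgeR), from 14.5 ± 1.41 to 19.8 ± 0.910 normalized CPM (SD, n = 3 each).

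Among the transcription members, the kinases of the Mediator complex moved furthest apart. Cdk8 was at 42.4, 46.1 and 46.9 normalized CPM in the WT and 86.7, 86.2 and 89.3 in the KD libraries. It rose 1.94-fold (log2 fold change 0.95, standard error 0.051, adjusted p = 5.92e-18, edgeR), the largest rise in this class. Cdk19, its close paralog, was at 48.6, 41.8 and 43.2 in the WT and 29.4, 30.8 and 34.9 in the KD libraries. It fell by 0.49 on the log2 scale (standard error 0.069, adjusted p = 1.14e-07, edgeR), so every KD library was above the WT libraries for Cdk8 and below them for Cdk19. Ccnc, the cyclin that both kinases bind, was at 21.2, 21.8 and 21.7 in the WT and 23.4, 21.7 and 21.4 in the KD libraries. Its groups overlapped and the difference did not pass the test (log2 fold change 0.043, standard error 0.078, adjusted p = 0.624). Of the other subunits of this kinase module, Med13l rose (log2 fold change 0.80, adjusted p = 1.76e-17, edgeR), Med12 fell slightly (log2 fold change −0.16, adjusted p = 0.00546), a call lost without WT replicate 2 (adjusted p = 0.0996), and Med13 did not pass (log2 fold change −0.069) but did with library size alone, with upper quartile scaling or without KD replicate 2 (adjusted p = 0.0432, 0.0121 and 0.0455, edgeR). Med12l, the paralog of Med12, did not pass (log2 fold change 0.54, adjusted p = 0.21).

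The elongation kinases also split. Cdk9, the kinase of P-TEFb, which releases paused RNA polymerase II, was at 126, 124 and 123 normalized CPM in the WT and 93.7, 92.5 and 104 in the KD libraries. All KD libraries were lower, with a log2 fold change of −0.36 (adjusted p = 7.71e-09, edgeR). Its cyclins went opposite ways by small amounts. Ccnt1 was at 114, 112 and 106 in the WT and 125, 127 and 125 in the KD libraries, a rise of 0.19 on the log2 scale (adjusted p = 1.64e-04). Ccnt2 was at 58.0, 57.3 and 59.7 in the WT and 52.2, 54.7 and 48.5 in the KD libraries, a log2 fold change of −0.17 (adjusted p = 0.00562) that was lost without KD replicate 3 (adjusted p = 0.0806). Of the partners that hold P-TEFb inactive, Hexim1 fell from 114 ± 1.33 to 62.6 ± 2.94 normalized CPM (log2 fold change −0.86, adjusted p = 6.31e-18, edgeR, mean and SD of n = 3 each), Hexim2 (log2 fold change −0.65, adjusted p = 0.00459) and Mepce (log2 fold change −0.31, adjusted p = 4.01e-07) also fell, and Larp7 rose (log2 fold change 0.61, adjusted p = 3.36e-11).

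Cdk12 and Cdk13, which phosphorylate RNA polymerase II during elongation, both rose. Cdk12 was at 65.7, 66.6 and 65.7 normalized CPM in the WT and 109.5, 111 and 114 in the KD libraries, a log2 fold change of 0.75 (adjusted p = 7.40e-17, edgeR, standard error 0.045). Cdk13 was at 130.2, 129.5 and 129.9 in the WT and 161, 151 and 152 in the KD libraries, a log2 fold change of 0.25 (adjusted p = 7.64e-07). Their shared cyclin, Ccnk, was at 69.8, 73.1 and 64.8 in the WT and 63.8, 65.6 and 68.0 in the KD libraries, with overlapping groups (log2 fold change −0.073, adjusted p = 0.204, edgeR), and it passed only with upper quartile scaling (log2 fold change −0.11, adjusted p = 0.044). As with Cdk8 and Ccnc, the kinases thus rose while no change of the cyclin passed the main test, although Cdk19, which also binds Ccnc, fell. Whether the kinases and their cyclins differ in their change was not tested. Cdk11b, a kinase linked to splicing, was at 84.4, 84.9 and 86.2 in the WT and 91.3, 98.5 and 91.2 in the KD libraries, a small rise of 0.14 on the log2 scale (adjusted p = 0.00787) that did not pass with upper quartile scaling (adjusted p = 0.0577). Its L-type cyclins were Ccnl2, at 129.7, 116 and 121 in the WT and 88.2, 99.0 and 86.6 in the KD libraries, which fell (log2 fold change −0.42, adjusted p = 2.23e-09, edgeR), and Ccnl1, at 119, 103 and 116 in the WT and 100.5, 109 and 111 in the KD libraries, which did not pass (log2 fold change −0.08, adjusted p = 0.14). Ccnl1 passed with upper quartile scaling or without WT replicate 2 (adjusted p = 0.0263 and 0.0115, edgeR).

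**Figure D3:**
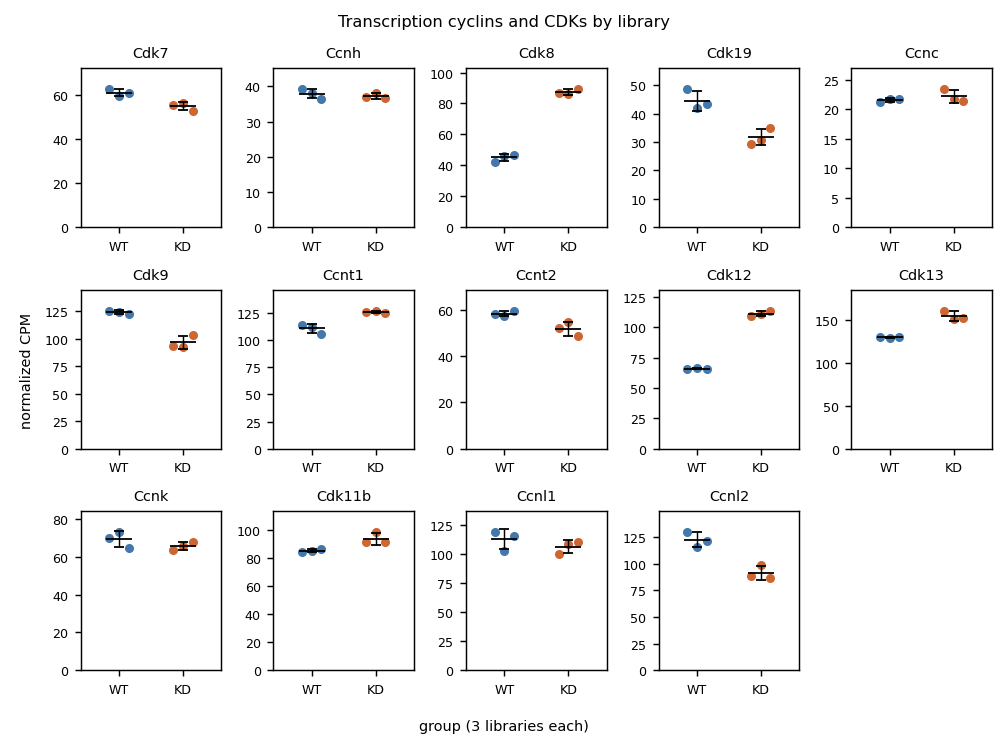
Normalized CPM (y axis, from 0) of the 12 transcription members and of Cdk7 and Ccnh in each of 3 WT and 3 KD libraries (points), with the mean and SD (bars). Cdk8 and Cdk12 show the largest rises, Cdk19, Ccnl2 and Cdk9 the largest falls, and Ccnh, Ccnc, Ccnk and Ccnl1 overlap between the groups.

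The largest change of any member was in the atypical group. Ccng2 encodes cyclin G2, which restrains proliferation and is known as a target of FOXO factors and of hypoxia. It was at 239, 224 and 216 normalized CPM in the WT libraries (9013, 8456 and 8173 counts) and at 16.1, 14.2 and 15.1 in the KD libraries (621, 522 and 572 counts). The fall was 15-fold (log2 fold change −3.90, standard error 0.054, adjusted p = 3.18e-35, edgeR), and the log2 fold change stayed between −3.95 and −3.85 under all 13 alternatives. Ccni, a widely expressed cyclin, was at 226, 211 and 218 in the WT and 126, 124 and 129.6 in the KD libraries. It too was lower in every KD library, with a log2 fold change of −0.79 (adjusted p = 3.46e-19, edgeR).

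Cdk18 and Ccnj rose more than 2-fold. Cdk18, a kinase of the PCTAIRE group, was at 9.37, 7.84 and 7.28 normalized CPM in the WT and 31.7, 31.5 and 32.0 in the KD libraries. This was a rise of 3.88-fold (log2 fold change 1.96, standard error 0.091, adjusted p = 9.63e-20, edgeR). The other PCTAIRE kinases differed from it in size or direction: Cdk17 was at 59.3, 59.8 and 58.0 in the WT and 66.3, 70.3 and 68.7 in the KD libraries and rose slightly (log2 fold change 0.21, adjusted p = 2.86e-04), while Cdk16 was at 189.6, 191 and 186 in the WT and 139, 146 and 145 in the KD libraries and fell (log2 fold change −0.40, adjusted p = 1.93e-11). None of these kinases overlapped between the groups. Ccnj, a little studied cyclin, was at 3.19, 2.86 and 3.89 in the WT and 6.80, 6.92 and 7.90 in the KD libraries, a rise of 2.17-fold on 108 to 147 counts in the WT and 254 to 300 counts in the KD libraries (log2 fold change 1.12, standard error 0.17, adjusted p = 4.10e-07, edgeR).

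Cyclin Y and a kinase it binds at the cell membrane rose together. Cdk14, which acts with cyclin Y in Wnt signalling, was at 26.5, 27.9 and 33.6 normalized CPM in the WT and 55.6, 52.0 and 51.0 in the KD libraries, a log2 fold change of 0.85 (adjusted p = 4.82e-13, edgeR). Ccny was at 77.1, 82.3 and 78.5 in the WT and 104, 108 and 112 in the KD libraries, a log2 fold change of 0.45 (adjusted p = 1.04e-10). Cdk16, described above and also a known partner of cyclin Y, fell. Cdk14 and Ccny were higher in every KD library, as was the related Ccnyl1, outside the naming rule and chosen after its values were seen, at 30.5, 33.9 and 35.1 in the WT and 47.4, 45.1 and 47.8 in the KD libraries (log2 fold change 0.50, adjusted p = 1.48e-08). Cdk5, best known from neurons, was at 42.9, 41.6 and 40.3 in the WT and 27.6, 27.8 and 29.5 in the KD libraries, and fell by 0.56 on the log2 scale (adjusted p = 1.67e-09, edgeR). Its activator Cdk5r1 was low in both groups, at 1.68 ± 0.491 and 2.75 ± 0.710 (SD, n = 3 each), with overlapping groups; it passed the test upwards (log2 fold change 0.71, adjusted p = 0.0242) but not without WT replicate 3, KD replicate 2 or KD replicate 3 (adjusted p = 0.119, 0.108 and 0.0852, edgeR).

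Of the remaining members, Cdk20, a kinase linked to ciliary signalling, was at 16.0, 12.2 and 15 in the WT and 22.0, 19.1 and 20.5 in the KD libraries and rose (log2 fold change 0.51, adjusted p = 1.35e-05, edgeR). Cdk10 and its cyclin Ccnq did not move alike. Cdk10 was at 14.7, 10.7 and 13.8 in the WT and 11.2, 10.9 and 12.4 in the KD libraries with overlapping groups (log2 fold change −0.19, adjusted p = 0.138), and fell without WT replicate 2 (log2 fold change −0.31, adjusted p = 0.0148, edgeR). Ccnq was at 13.2, 12.8 and 14.4 in the WT and 14.7, 17.1 and 19.0 in the KD libraries and rose (log2 fold change 0.32, adjusted p = 0.00408), a call lost without KD replicate 3 (adjusted p = 0.0521). Ccno, known from cells that make many cilia, was at 4.33, 4.0 and 2.96 in the WT and 3.59, 5.77 and 4.32 in the KD libraries, overlapped between the groups and did not pass (log2 fold change 0.28, adjusted p = 0.218).

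**Figure D4:**
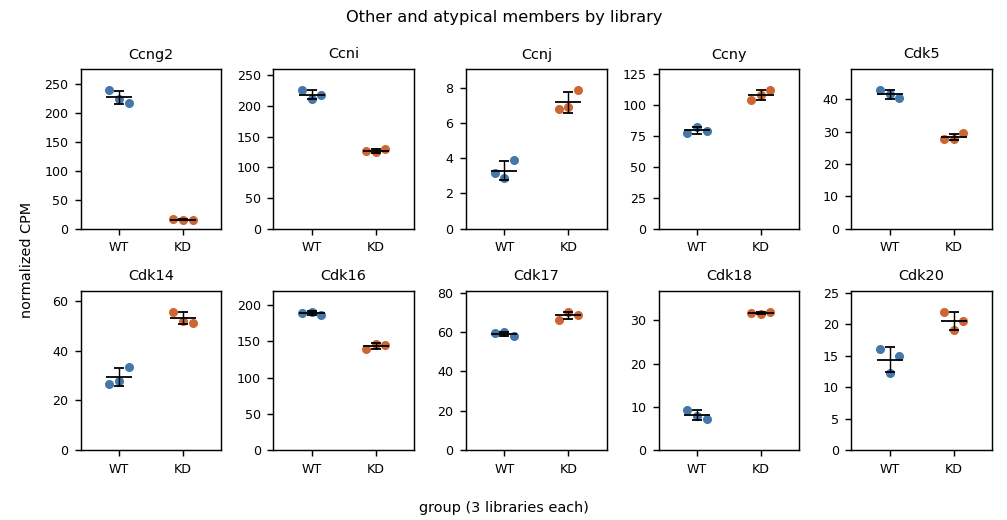
Normalized CPM (y axis, from 0) of 10 other or atypical members in each of 3 WT and 3 KD libraries (points), with the mean and SD (bars). Ccng2 stands at 14.2 to 16.1 in the KD libraries against 216 to 239 in the WT libraries, and Cdk18 stands at 31.5 to 32.0 there against 7.28 to 9.37 in the WT libraries.

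Since related members often moved apart, the ratio of their normalized CPM was taken in each library. A ratio of 2 genes depends on their lengths, which were not used, so only its change between the groups is read. The largest change of the 11 pairs was that of Cdk18 to Cdk16, at 0.0494, 0.0410 and 0.0391 in the WT and 0.228, 0.215 and 0.221 in the KD libraries, a 5.14-fold change. For Cdk8 to Cdk19 the ratio was 0.873, 1.10 and 1.08 in the WT and 2.95, 2.80 and 2.56 in the KD libraries, a 2.73-fold change. For Ccnb1 to Ccnb2 it was 1.62, 1.55 and 1.66 in the WT and 3.19, 3.09 and 3.38 in the KD libraries, and for Ccnd1 to Ccnd3 8.80, 9.67 and 9.25 in the WT and 16.0, 15.2 and 16.3 in the KD libraries. None of these 4 ratios overlapped between the groups. Smaller changes without overlap were found for Cdk16 to Cdk17 (1.53-fold, downwards), Cdk12 to Cdk13 (1.42-fold), Ccne1 to Ccne2 (1.32-fold), Ccnt1 to Ccnt2 (1.28-fold), Ccnl1 to Ccnl2 (1.27-fold) and Cdk4 to Cdk6 (1.23-fold, downwards). Cdk1 to Cdk2 overlapped, at 3.27, 3.45 and 3.46 in the WT and 3.12, 3.28 and 3.20 in the KD libraries. Of all single genes tested, 75.6% did not overlap, and the share for other pairs of genes was not computed. The lack of overlap is therefore not read as particular to these pairs. The pairs were chosen with the values known, and with 3 libraries a group an exact permutation test allows no p under 0.1, so none is given.

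**Figure D5:**
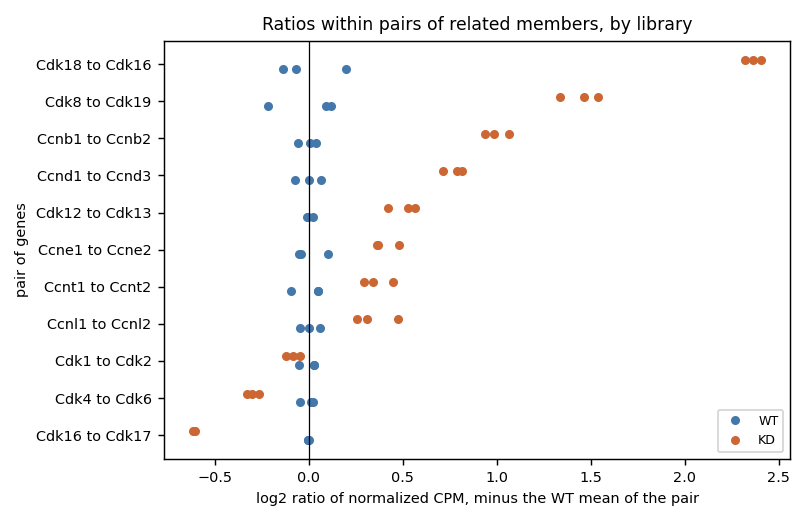
Log2 ratio of normalized CPM within 11 pairs of related members in each library (points, 3 WT and 3 KD), set relative to the WT mean of the pair (x axis). Only the points of Cdk1 to Cdk2 overlap between the groups, and those of Cdk18 to Cdk16 lie furthest apart.

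Proteins that act on CDKs, are regulated by them or work beside them in transcription were followed in lists of 73 genes, of which 68 were tested: 33 fell and 22 rose (36.7% of all genes each way). CDK inhibitors had the largest median change of these lists. Of 8 listed, 5 were tested and all 5 fell, with a median log2 fold change of −1.44. Cdkn1a, which encodes p21, was at 281, 247 and 244 normalized CPM in the WT and 68.7, 64.0 and 64.9 in the KD libraries (log2 fold change −1.97, adjusted p = 3.21e-28, edgeR). Cdkn1b, which encodes p27, was at 92.8, 94.4 and 90.3 in the WT and 30.1, 30.0 and 35.2 in the KD libraries (log2 fold change −1.54, adjusted p = 1.50e-22). Cdkn2d, which encodes an inhibitor of Cdk4 and Cdk6, was at 50.5, 49.3 and 51.4 in the WT and 20.9, 16.8 and 18.0 in the KD libraries (log2 fold change −1.44, adjusted p = 6.80e-19). None of these 3 genes overlapped between the groups, and the log2 fold change of each was larger in size than that of Cdk4. The other two fell by less, Cdkn3 with a log2 fold change of −0.34 (adjusted p = 0.00157) and Cdkn2c with −0.14 (adjusted p = 0.0087), a call that was lost without KD replicate 1 (adjusted p = 0.0836, edgeR). Cdkn2a, Cdkn2b and Cdkn1c had too few counts to be tested.

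The counts of these lists too stand against 36.7% of all genes each way. Of 10 tested kinases, phosphatases and adaptors that act on CDKs, 4 fell and 4 rose. One that rose, Cks2, a subunit of CDK complexes, did so narrowly (log2 fold change 0.11, adjusted p = 0.0462, edgeR), and its call was lost under 10 of 13 alternatives. Wee1, which inhibits Cdk1, rose from 54.6 ± 1.21 to 80.6 ± 2.82 normalized CPM (log2 fold change 0.56, adjusted p = 3.20e-12, edgeR, mean and SD of n = 3 each), and the activating phosphatases Cdc25c (log2 fold change −0.44, adjusted p = 1.01e-06) and Cdc25b (log2 fold change −0.20, adjusted p = 1.07e-04) fell. Cdc25a, the related phosphatase of the G1 to S transition, did not pass (log2 fold change 0.09, adjusted p = 0.103) but did without WT replicate 2 or KD replicate 3 (adjusted p = 0.0454 and 0.0472, edgeR). Pkmyt1, which like Wee1 inhibits Cdk1, did not pass either (log2 fold change −0.03, adjusted p = 0.689). Cdc37, a chaperone of Cdk4, fell from 479 ± 13.3 to 268 ± 5.11 (log2 fold change −0.84, adjusted p = 1.07e-21), and Cks1b, a subunit of CDK complexes, fell by 0.56 on the log2 scale (adjusted p = 2.75e-14). The pocket proteins and E2F factors, which are regulated by G1 CDKs, had 4 lower and 5 higher of 13 tested, with a median of 0.058. Of 12 genes of cyclin degradation, 7 fell and 3 rose. Among these, Fbxo43, an inhibitor of the anaphase-promoting complex in meiosis, went from 18, 14 and 30 counts in the WT to 0, 0 and 2 counts in the KD libraries (ratio of summed counts 0.0318, 95% exact interval 0.00377 to 0.12, counting error only). Fbxo43 passed the expression filter only through its WT counts. With at least 10 counts required in every library it was not tested, and 32 genes of all the lists fell. Of 6 genes listed as subunits or activators of the DREAM and MuvB complexes, 2 fell and 2 rose. Among them Lin37 fell (log2 fold change −0.85, adjusted p = 8.83e-07, edgeR) and Lin52 rose (log2 fold change 0.88, adjusted p = 6.40e-06). The call of Lin54, the other that rose, was lost under 9 of 13 alternatives. Of 22 partners of transcription CDKs, 11 fell and 8 rose, with a median of −0.09.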

How the data were processed

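The deposited table holds whole-number read counts per gene symbol for 6 libraries, without normalization by the authors. According to the study's methods, the authors trimmed adapters and mapped reads with HISAT2 to hg19; the submitters' processing notes name hg38, HISAT2, featureCounts and DESeq2, and the annotation and use of strand are not given in the sources used here, so counts of paralogs and overlapping genes may be split in unknown ways. Both builds named are human, while the symbols of the counted genes are of the mouse kind. Of 22989 symbols, 4648 are Gm names, 1129 are Rik names and 16 equal a human symbol as written. Which genome and annotation gave these counts was not tested. Columns were assigned to samples by name.

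Tests used edgeR 4.0.16 in R 4.3.3: filterByExpr (minimum count 10, minimum total 15), TMM, and the quasi-likelihood test with the group only, with Benjamini-Hochberg adjustment over 13497 genes. Thresholds were an adjusted p under 0.05, and in addition a fold over 2. The standard error of a log2 fold change is its size over the root of the F statistic, and normalized CPM use TMM-scaled library totals. TMM factors lay between 0.9901 and 1.014, and the biological coefficient of variation was 5.21%. With totals of 36979221 to 38799331 counts, intervals of summed counts (95%, exact Clopper-Pearson) cover counting error only.

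The members, roles and lists were chosen with earlier results of these data known. Given with values in every library were members past both thresholds, the 12 with the largest change past an adjusted p of 0.05 and a core set of the family; other members follow with their values, and of the lists at most the 8 genes with the largest change and the partners of members were to be named. The other list genes named (Cks2, Lin54, Cdkn2c and Cdkn3 among them) were added after their values were seen. In simulated counts for this comparison over 13481 genes tested, 99 of 100 genes changed 1.5-fold and 100 of 100 changed 2.5-fold were recovered. The changed genes were drawn from well counted genes, rose and fell equally often, and shared a single dispersion with all others. The simulation therefore does not cover genes with few counts, or data in which 73.4% of the genes are called. In these same simulated counts, which held both fold sizes together, 7 unchanged genes were called in all. In simulated counts where none was changed, 0 genes were called. Alternatives were 3 other scalings, 2 other filters, DESeq2 1.42.0, the replicate number as a block and each library left out. Promoters were read from RefSeq (GRCh38.p14). A further gene of the family is not reported here.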

Additional observations from a re-analysis of the deposited data

How the results depend on the processing

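The counts of members past each threshold, and those of cell cycle members, transcription members and regulators at an adjusted p under 0.05, stayed within 1.5 times the values reported under all 13 alternatives. With each library left out, 16 to 20 members fell and 15 to 16 rose, and 1 fell and 3 rose past a fold of 2. Of 532 values of single members, 518 kept their direction and their side of the threshold, 9 lost the call, 4 gained it and 1 reversed, that of Ccnh, whose log2 fold change lay between −0.0483 and 0.00154 with each library left out and was positive without WT replicate 1. The calls lost were those of Ccne1, Ccnq, Ccnt2, Cdk7 and Cdk11b, with adjusted p-values given beside them; the cause was not tested. Samples with the same replicate number did not deviate together (correlations across genes 0.042, −0.015 and −0.021), so they were not taken as pairs, and with the replicate number as a block 18 members fell and 16 rose, as without it. Over all genes the block moved the calls from 9912 to 9838, and of the regulators Cks2 and Lin54 lost theirs. Other scalings moved the median log2 fold change of the genes tested from −0.0061 to between −0.047 and 0.00073. Of 883 values of the 68 regulators tested, 828 kept direction and call, 41 lost the call (10 for Cks2, 9 for Lin54 and 8 for Ercc3), 6 gained it and 8 reversed, for 5 regulators that did not pass. With each library left out these lay between −0.0584 and 0.0119 for Aff4, −0.00115 and 0.0481 for E2f3, −0.12 and 0.0653 for Fbxo31, −0.0555 and 0.0224 for Mybl2 and −0.0729 and 0.0219 for Pkmyt1, and E2f3 was at −0.0245 with upper quartile scaling and −0.00289 with library size alone. Depth limits Ccnd2, Ccnb3 and Fbxo43, which rest on few counts.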
